A study of Mus musculus with 9 samples.

Results

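Activated CD4+ T cells of mice with a conditional deletion of Bmpr1a were compared with activated CD4+ T cells of wild-type (WT) mice by RNA sequencing. The comparison used 6 of the study's 9 libraries, 3 per genotype, chosen by their labels, and covered every gene whose mean level in those 6 libraries reached 0.5 FPKM, which was 14923 of 25759 genes. FPKM are sequenced fragments scaled by transcript length and by the library's mapped total, and the levels were deposited in this unit. The remaining 3 libraries, from naive WT cells, entered through the estimate of the spread between libraries and through the choice and reference levels of the genes used for scaling.

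All mice were C57BL/6, were 8 to 12 weeks old and carried a Foxp3GFP reporter transgene, in which green fluorescent protein marks cells that express Foxp3. The WT mice had no other allele named in the labels. The knockout mice are labelled BMPR1a/CD4cre: Cre recombinase expressed from Cd4 regulatory sequences removes a floxed gene in developing T cells, before the helper and the cytotoxic lineage separate. Which part of Bmpr1a is removed is not given in the sources used here. In both genotypes, mixed lymph node and spleen cells received ConA, a lectin that stimulates T cells, at 2 ug/ml together with LPS at 10 ng/ml for 3 days, and CD4+CD44+CD62L-Foxp3GFP- cells were then sorted, so that regulatory T cells marked by the reporter were removed. Other cells of the culture, which in the knockout mice also included T cells exposed to Cre, were present during the stimulation. Whether the 3 libraries of a genotype are different mice or different cultures is not stated in the labels. The p-values therefore measure the spread between these libraries, which may be technical.

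Bone morphogenetic proteins (BMPs) are secreted ligands of the TGF-beta superfamily. They assemble a type II receptor with a type I receptor such as BMPR1A, which phosphorylates SMAD1, SMAD5 and SMAD9. These enter the nucleus with SMAD4 and act on targets such as the Id genes, while SMAD6 and SMAD7 feed back on the receptors. In T cells the pathway is known for effects on thymocyte development and on the activation and differentiation of CD4+ cells.

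Between 13212 and 13395 genes reached 1 FPKM in each of the 6 libraries, and the levels of protein-coding genes summed to between 551768 and 581762 FPKM. Between 4943 and 4976 genes were listed at 0 in the WT libraries and between 4529 and 4590 in the knockout libraries, without overlap. The levels of all genes summed to 12521500, 13114300 and 10295900 FPKM in WT and to 6959900, 9236100 and 10530000 FPKM in knockout libraries, which overlapped. The part of these differences in the results was not tested. How many reads lie behind these values is not known. The markers of CD4 T cells summed to between 3198 and 3666 FPKM and 0 of 8 were called (2 at an unadjusted p under 0.05 in limma), with Cd4 at 338, 350 and 352 FPKM in WT and at 353, 280 and 286 in knockout libraries. The CD8 markers Cd8a and Cd8b1 were also present, and their sum was 171, 147 and 230 FPKM in WT and 220, 279 and 254 in knockout libraries, with 0 of 2 called and 0 at an unadjusted p under 0.05. B cell markers summed to between 130 and 196 FPKM with 0 of 6 called and 0 at an unadjusted p under 0.05, and neutrophil, erythroid and stromal markers were too low to be tested. Natural killer cell markers summed to 33.2, 26.4 and 38.5 FPKM in WT and to 55.5, 54.0 and 58.8 FPKM in knockout libraries, with Klrk1, which T cells also express, the one called of 3 tested, and with the defining marker Ncr1 at most at 0.0584 FPKM. Gamma-delta T cell markers summed to 1.295, 1.084 and 1.575 FPKM in WT and to 3.972, 2.747 and 3.434 FPKM in knockout libraries, without overlap, with 0 of 1 tested called and 1 at an unadjusted p under 0.05. The part of these cells in the results below was not tested. In RNA from a mixture, fewer cells of a type and less RNA per cell cannot be told apart.

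Bmpr1a itself was low in both genotypes. The gene spans bases 34410734 to 34503341 of chromosome 14 (minus strand, mouse build GRCm38), and it was at 2.16, 2.92 and 1.40 FPKM in the WT libraries and at 0.957, 1.93 and 1.20 FPKM in the knockout libraries. The second knockout library lay above the third WT library, so the groups overlapped. The difference was -0.41 on the log2(FPKM + 1) scale (SE 0.206) and did not pass (limma adjusted p = 0.249), and a two-sided exact permutation test gave p = 0.2, where 0.1 is the smallest p that 3 against 3 libraries allow. A value for the whole gene counts exons outside a deleted part too, so it does not check the genotype label in either direction.

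Across the genes tested, 691 (4.63%) passed an adjusted p of 0.05 in limma, a linear model test that shares information on the spread between genes. Of these, 551 (3.69%) were higher and 140 (0.938%) lower in the knockout, and 70 and 35 of them differed at least 2-fold. The split depended on the scaling: after each library was divided by its median-of-ratios size factor, 366 genes (2.45%) passed, 210 (1.41%) higher and 156 (1.05%) lower. The share of calls that were higher was thus 79.7% as deposited, 57.4% with median-of-ratios scaling and 55.4% with quantile normalization. The size factors were 0.971, 0.973 and 0.982 in WT and 1.035, 1.017 and 1.035 in knockout libraries, and the median log2 difference of all genes was 0.06 as deposited and -0.00 after scaling. Both fits called 340 genes (2.28%), of which 210 were higher and 130 (0.871%) lower. At 3462 genes (23.2%) every knockout library lay above every WT library, and at 1252 (8.39%) every knockout library lay below.

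**Figure D1:**
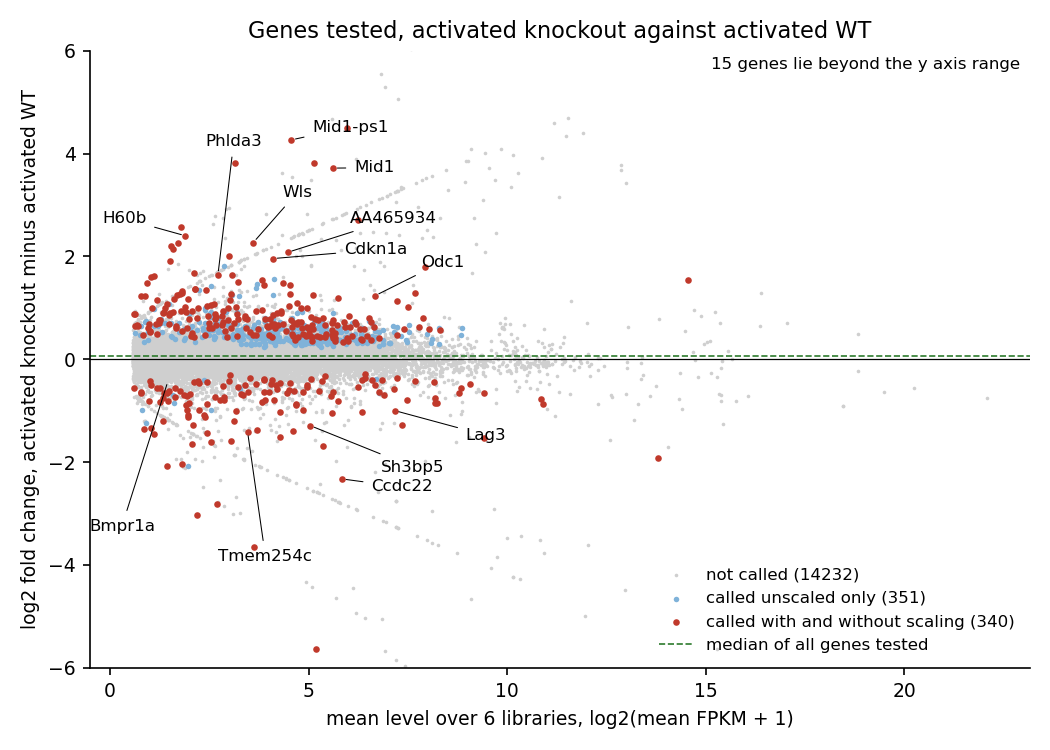
Log2 difference between activated knockout and activated WT cells (vertical axis, on the log2(FPKM + 1) scale) against the mean level over the 6 libraries (horizontal axis, log2 scale), 1 point per gene tested. Red points are the 340 genes called with and without scaling, blue points those called as deposited only, and the dashed line is the median of all genes at 0.06; 15 uncalled genes lie beyond the axis.

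How far the calls rest on single libraries differed widely. With only the 6 compared libraries, where the naive libraries no longer add to the estimate of the spread, 100 genes were called. The root mean square SD within a group was 0.539 in naive WT, 0.625 in activated WT and 0.606 in activated knockout libraries (log2(FPKM + 1) scale). The part of this difference in the number of calls was not tested. The replicate number as a block gave 64 calls. Leaving out knockout library 3, WT library 2 or knockout library 2 left 71, 72 or 110 calls, while 1156 were made without knockout library 1. Against this, 43 genes, 32 higher and 11 lower, passed in each of the 21 alternatives in which they could be tested. Unless stated otherwise, genes described below passed with and without scaling. Counts of list members called are to be read beside 3.69% of all genes called higher and 0.938% called lower as deposited. With scaling these shares were 1.41% and 1.05%.

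**Figure D2:**
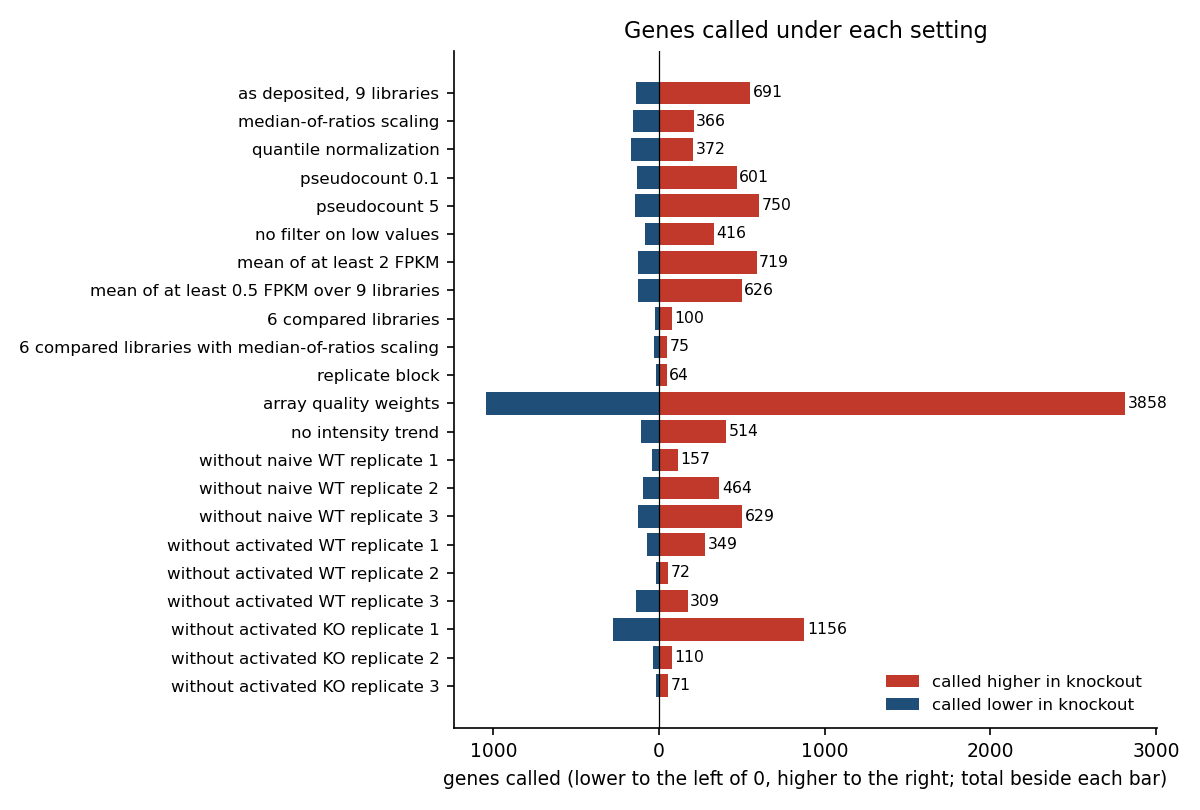
Number of genes called (horizontal axis; lower in the knockout to the left of 0 and higher to the right) under each setting (vertical axis), with the total beside each bar. The 691 calls as deposited compare with 366 after median-of-ratios scaling, 100 with only the 6 compared libraries and 3858 with array quality weights.

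The receptors of the BMP, activin and TGF-beta families did not pass. Of 13 listed, 9 were high enough to be tested. In limma 0 of them were called and 2 had an unadjusted p under 0.05, and their median log2 difference was -0.01, beside 0.06 for all genes. Acvr1, Acvr1c and Acvr2b were too low to be tested and Bmpr1b was not analysed here, so Bmpr1a and Acvrl1 were the type I receptors for BMP-class ligands that could be compared. Acvrl1, which encodes ALK1, was at 15.03, 15.5 and 6.62 FPKM in WT and 4.58, 9.78 and 3.68 FPKM in knockout libraries, where the groups overlapped (log2 difference -0.95, limma adjusted p = 0.167). Bmpr2, the type II BMP receptor, was below 1 FPKM in all 6 libraries (log2 difference -0.07), and Tgfbr2, the type II TGF-beta receptor, was at 59.8 ± 2.96 FPKM in WT and 59.4 ± 4.91 in knockout cells (SD, n = 3 each).

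Among the SMAD proteins and their regulators, 1 of 10 tested genes passed. Smad7, which encodes an inhibitory SMAD that recruits ubiquitin ligases to type I receptors, was at 16.4, 18.1 and 20.9 FPKM in WT and at 13.7, 11.9 and 12.9 FPKM in knockout libraries. All knockout libraries lay below all WT libraries. It was lower by 1.44-fold in the means (log2 difference -0.49, SE 0.102, limma adjusted p = 0.042, 0.031 with scaling, 0.0757 with only the 6 compared libraries). The BMP-responsive transducers Smad1 (log2 difference 0.19) and Smad5 (-0.14) and the shared partner Smad4 (-0.07) did not pass, and Smad6, Smad9 and Bambi, which encodes a pseudoreceptor, were too low to be tested.

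Only 4 of 12 BMP target genes in the table could be tested, Smad7 among them. Id2, which encodes an inhibitor of E proteins, was at 47.0, 59.2 and 42.6 FPKM in WT and at 63.2, 94.1 and 51.0 in knockout libraries, overlapping groups that did not pass (log2 difference 0.44, limma adjusted p = 0.235). Id3, a related inhibitor gene, was at 28.8 ± 8.03 FPKM in WT and 28.2 ± 7.78 FPKM in knockout cells (SD, n = 3 each, limma adjusted p = 0.949). Runx2, which encodes a transcription factor best known from bone, was at 7.14 ± 1.61 and 9.51 ± 0.973 FPKM (limma adjusted p = 0.154). Id1, the target most often used to read BMP signalling, was too low to be tested.

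Among the genes named by size, the largest increases were those of Mid1, which encodes a microtubule-associated ubiquitin ligase, and of its copy Mid1-ps1. Mid1 was at 4.68, 6.56 and 6.197 FPKM in WT and at 94.5, 62.5 and 115 FPKM in knockout libraries, and Mid1-ps1 was at 1.19, 1.16 and 1.39 against 46.5, 27.3 and 59.1. The means differed 15.6-fold and 35.5-fold (log2 differences 3.72 and 4.27, limma adjusted p = 0.000276 for both). The groups did not overlap, which the rule for naming genes by size required. The transcripts of Mid1, on chromosome X, and Mid1-ps1, on chromosome Y, were identical at 99.6% of their aligned bases, so reads of one can be assigned to the other and the values of both are uncertain. Y-linked Ddx3y, Eif2s3y, Kdm5d and Uty were not called, and Xist was at most at 0.0146 FPKM.

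H60b passed in every alternative. It encodes a ligand of NKG2D, an activating receptor of natural killer and T cells, and lies on chromosome 10 at 22158586 to 22288849. Its level was 0.0674, 0.315 and 0.186 FPKM in WT and 5.58, 4.77 and 5.48 FPKM in knockout libraries (log2 difference 2.40, SE 0.109, limma adjusted p = 7.77e-05). The 3 knockout values were close to each other and far above all WT values, where the rule for naming genes by size required no overlap. Klrk1, which encodes NKG2D itself, was higher as well, with 30.5, 24.5 and 33.1 FPKM in WT and 51.0, 50.3 and 52.7 in knockout libraries (1.75-fold in the means, limma adjusted p = 0.021, 0.0614 with only the 6 compared libraries). Of the 12 listed genes of NKG2D and its ligands, 5 were tested and H60b and Klrk1 were the ones called.

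Wls, which encodes a carrier of Wnt proteins to the cell surface, was at 3.00, 2.79 and 3.84 FPKM in WT and at 19.6, 18.2 and 19.8 FPKM in knockout libraries, a 5.99-fold difference in the means (log2 difference 2.27, limma adjusted p = 0.00037). It was the only one of 14 tested genes of the Wnt pathway list that was called. The noncoding transcript AA465934 was at 7.31, 6.64 and 8.71 against 32.6, 38.8 and 33.9 FPKM, and Odc1, which encodes the first enzyme of polyamine synthesis and was picked after its values were seen, at 60.6, 53.2 and 65.4 against 150, 119 and 160. Both passed in every alternative tested (log2 differences 2.08 and 1.24).

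Further large increases included secreted and cell-surface mediators. Tnfsf11, which encodes the cytokine RANKL, was at 1.95, 1.26 and 1.24 FPKM in WT and 6.07, 4.67 and 5.32 in knockout libraries (log2 difference 1.36, limma adjusted p = 0.0185). Penk, which encodes proenkephalin, was at 1.33, 0.516 and 1.21 against 8.82, 3.56 and 4.77 FPKM, and Gzmc, which encodes granzyme C, at 5.87, 8.42 and 4.33 against 14.2, 27.4 and 18.4 FPKM. None of the 3 genes had overlapping groups, as the rule for naming genes by size required. Dglucy, a mitochondrial D-glutamate cyclase (3.84-fold in the means), Ppic, a cyclophilin (3.35-fold), and Lmna, the gene of lamins A and C (3.86-fold), also rose. Of the 12 tested genes among ligands of the TNF superfamily, Tnfsf11 and Tnfsf4, the gene of OX40 ligand, were called, the latter as deposited only (limma adjusted p = 0.0493, 0.0683 with scaling).

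The largest decrease among the genes named by size was that of Ccdc22, which encodes a subunit of an endosomal sorting complex. It was at 106, 107 and 71.7 FPKM in WT and at 18.6, 16.0 and 19.0 FPKM in knockout libraries, 5.32-fold lower in the means (log2 difference -2.33, limma adjusted p = 0.00173). Sh3bp5, a regulator of Rab11 GTPases, was at 39.5, 50.4 and 48.0 against 20.03, 17.2 and 17.2 FPKM (log2 difference -1.29, limma adjusted p = 0.00157). In neither gene did the groups overlap, as the rule for naming genes by size required, and both passed in every alternative.

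Other genes that fell were Ajuba, a LIM domain scaffold protein (25.2, 28.2 and 29.6 FPKM in WT, 12.8, 8.90 and 6.25 in knockout libraries), and the transporters Slco1a6 (9.04, 13.6 and 11.7 against 3.95, 2.25 and 3.30) and Slc26a11 (3.52-fold lower in the means). Insl3, an insulin-like hormone gene, was 2.62-fold and Tent5a, a poly(A) polymerase gene, 2.08-fold lower. Insl3 lies wholly inside the annotated span of Jak3 on the same strand, and Jak3 was lower too, as described below. Reads of the shared part cannot be told apart, so Insl3 and Jak3 are not separate observations. Lag3, which encodes a co-inhibitory receptor that binds MHC class II, fell from 182, 187 and 205 FPKM in WT to 94.2, 99.1 and 92.4 FPKM in knockout libraries (2.01-fold lower in the means, SE of the log2 difference 0.216, limma adjusted p = 0.0452, 0.00657 with only the 6 compared libraries). It was the only one of 15 tested co-inhibitory receptor genes that was called, and the median of the list was -0.04. Nup210, a nuclear pore gene picked after its values were seen, was at 134, 127 and 133 against 85.0, 83.5 and 84.0 FPKM.

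**Figure D3:**
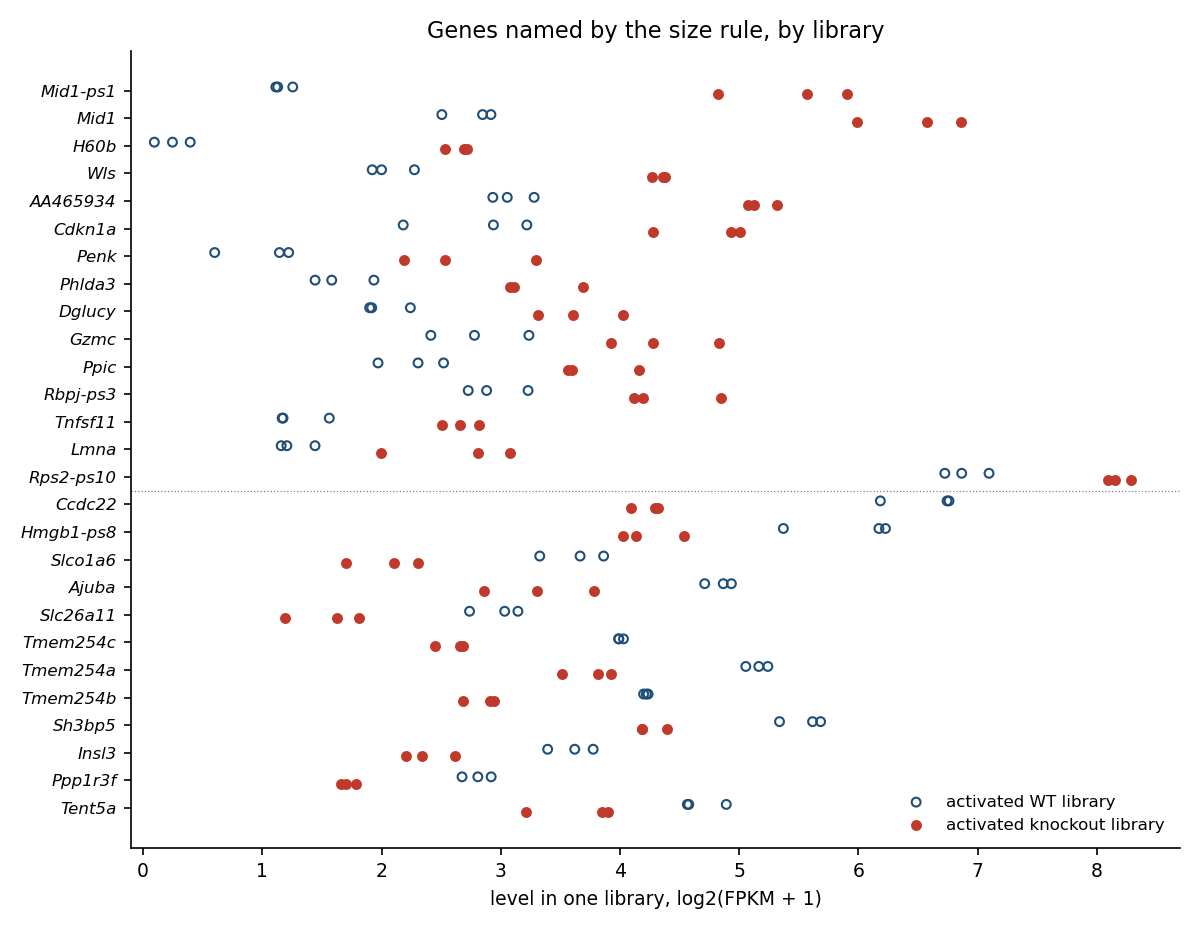
Level of the genes named by size in each of the 6 activated libraries (horizontal axis, log2(FPKM + 1)), 1 row per gene, with the higher genes above the dotted line and the lower genes below it. At each of these genes the 3 knockout libraries lie on 1 side of the 3 WT libraries, as the rule for naming them required.

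Target genes of p53, the transcription factor that responds to DNA damage and other stress, held calls in 1 direction. Of 27 tested, 9 were higher and 0 lower with and without scaling, beside 3.69% of all genes called higher as deposited and 1.41% with scaling, and the median log2 difference of the 27 was 0.24 (0.17 with scaling). The 9 were Cdkn1a, Phlda3, Plk2, Zmat3, Bax, Tnfrsf10b, Sesn2, Ccng1 and Ei24. Only 2 of them passed with the 6 compared libraries alone, 3 with the replicate block, and 4, 3 and 3 without WT library 2, knockout library 2 or knockout library 3. The list had been seen to stand apart in an earlier analysis of these libraries, so its count is a description.

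Cdkn1a, the gene of the cyclin-dependent kinase inhibitor p21, was at 6.67, 8.31 and 3.54 FPKM in WT and at 18.4, 31.2 and 29.5 FPKM in knockout libraries. The lowest knockout library was above the highest WT library, as the rule for naming genes by size required. The means differed 4.27-fold (log2 difference 1.96, SE 0.289, limma adjusted p = 0.0205, 0.0642 with only the 6 compared libraries). Phlda3, which encodes an inhibitor of AKT recruitment to membranes, was at 1.72, 2.83 and 1.99 against 7.46, 7.67 and 11.9 FPKM (limma adjusted p = 0.00875). Plk2, a polo-like kinase gene, was 2.41-fold and Zmat3, a gene of an RNA-binding protein, 1.98-fold higher in the means.

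Bax, which encodes a protein that permeabilises the outer mitochondrial membrane, was at 63.2, 64.0 and 72.6 FPKM in WT and at 110, 112 and 128 FPKM in knockout libraries (log2 difference 0.80, limma adjusted p = 0.0185). Tnfrsf10b, the gene of a death receptor for TRAIL, was 2.11-fold higher. The opposing, survival-promoting gene Bcl2l1, which encodes BCL-XL, rose as well, from 12.7, 11.6 and 13.3 to 23.2, 27.03 and 24.1 FPKM (log2 difference 0.93, limma adjusted p = 0.00969). Of 14 tested genes of the BCL2 family, Bax and Bcl2l1 were called with and without scaling, and Bak1, a relative of Bax, as deposited only (1.27-fold). The proapoptotic Pmaip1 (log2 difference 0.96, limma adjusted p = 0.0837) and Bbc3 did not pass.

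The gene of p53 itself, Trp53, was at 68.3, 64.9 and 69.5 FPKM in WT and at 81.6, 82.0 and 93.5 FPKM in knockout libraries. It passed as deposited (log2 difference 0.34, limma adjusted p = 0.0391) and not with scaling (limma adjusted p = 0.0735). Mdm2, the gene of the ubiquitin ligase that degrades p53 and itself a target, did not pass (limma adjusted p = 0.284), nor did Fas, Btg2 or Ddb2. Among 18 genes of DNA repair, 3 were called higher, beside 3.69% of all genes as deposited and 1.41% with scaling. They were Parp1, Ung and Xrcc6, whose products sense breaks, remove uracil and join ends. Their means were higher by 1.39-fold, 1.87-fold and 1.31-fold. Of these 3, Parp1 alone passed with only the 6 compared libraries, and 0 genes of the list passed without WT library 2, knockout library 2 or knockout library 3.

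The 4 called p53 targets whose promoters hold a p53 half-site are shown to let the matches be read in place. The window is the 250 bases before the annotated start of transcription, taken from the RefSeq annotation of GRCm38.p6 and searched on both strands for the half-site of the p53 response element. Of 27 tested members, 19 had a promoter in the table and 9 of those a match, beside 8.2% of all genes with a promoter. Among the 7 called members with a promoter, 4 had a match. The windows are chr17:29090729-29090978 on the plus strand for Cdkn1a, chr7:45466899-45467148 on the minus strand for Bax, chr11:40755287-40755536 on the minus strand for Ccng1 and chr9:36797335-36797584 on the minus strand for Ei24. Capitals mark the matches, and the Cdkn1a window has 2. A match is a description of the letters, and whether p53 bound there was not measured.
Cdkn1a: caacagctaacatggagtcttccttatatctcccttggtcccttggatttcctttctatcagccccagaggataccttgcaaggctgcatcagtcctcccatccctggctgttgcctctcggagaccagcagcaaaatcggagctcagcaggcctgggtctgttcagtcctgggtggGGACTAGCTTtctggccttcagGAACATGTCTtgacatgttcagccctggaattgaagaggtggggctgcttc
Bax: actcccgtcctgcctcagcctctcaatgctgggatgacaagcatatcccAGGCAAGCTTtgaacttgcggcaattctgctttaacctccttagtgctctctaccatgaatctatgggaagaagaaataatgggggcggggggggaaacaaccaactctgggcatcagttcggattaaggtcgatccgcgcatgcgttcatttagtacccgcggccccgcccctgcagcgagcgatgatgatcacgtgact
Ccng1: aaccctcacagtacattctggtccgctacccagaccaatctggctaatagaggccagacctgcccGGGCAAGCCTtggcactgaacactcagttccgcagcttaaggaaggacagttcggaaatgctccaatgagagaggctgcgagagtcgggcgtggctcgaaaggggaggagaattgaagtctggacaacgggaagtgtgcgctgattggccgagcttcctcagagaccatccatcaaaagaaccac
Ei24: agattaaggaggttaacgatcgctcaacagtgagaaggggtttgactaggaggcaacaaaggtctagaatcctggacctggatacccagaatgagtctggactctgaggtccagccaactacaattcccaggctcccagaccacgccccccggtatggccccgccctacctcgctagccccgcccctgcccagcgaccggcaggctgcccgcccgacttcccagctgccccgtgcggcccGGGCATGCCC

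Chaperones of the endoplasmic reticulum (ER) formed a further group with increases. These proteins fold secreted and membrane proteins, and their genes are induced together in the unfolded protein response. Of 22 genes tested, 7 were higher as deposited, namely Sdf2l1, Pdia6, Creld2, Calr, Hyou1, Manf and Dnajb11, of which Sdf2l1, Pdia6 and Dnajb11 also passed with scaling, and 0 were lower. Over all genes, 3.69% were called higher as deposited and 1.41% with scaling. The median log2 difference was 0.37 (0.29 with scaling), and at 16 of the 22 every knockout library lay above every WT library, beside 23.2% of all genes. No member passed with only the 6 compared libraries, with the replicate block, or without WT library 2, knockout library 3 or the first naive library.

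Sdf2l1, which encodes an ER chaperone cofactor, was at 20.3, 15.03 and 17.1 FPKM in WT and at 28.6, 44.4 and 35.5 FPKM in knockout libraries (2.07-fold in the means, SE of the log2 difference 0.162, limma adjusted p = 0.0257). Pdia6, a disulfide isomerase gene, was at 40.4, 38.2 and 40.0 against 55.7, 74.3 and 60.6 FPKM (log2 difference 0.66, limma adjusted p = 0.0228). In both genes the second knockout library was the highest of the 6. Calr, the gene of the calcium-binding chaperone calreticulin, was at 243, 245 and 248 against 312, 420 and 401 FPKM and passed as deposited (limma adjusted p = 0.0313) but not with scaling (0.0543). Hspa5, which encodes the central ER chaperone BiP, was at 98.97 ± 3.37 and 150 ± 16.6 FPKM and did not pass (limma adjusted p = 0.0661). Of the sensors of the response, Ern1, Atf6 and the transcription factor Xbp1 were not called.

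The ER stress response element, spelled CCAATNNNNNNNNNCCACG, was found in the 250 bases before the start in 8 of the 19 members with a promoter in the same RefSeq table, beside 0.13% of all genes (35 of 27025). Of the 5 called members with a promoter, 3 had it, and they are shown because the element and its flanks can be compared between them. It was searched on both strands, and capitals mark the match, which on the opposite strand reads as its reverse complement. The windows are chr8:84846932-84847181 on the minus strand for Calr, chr12:17266339-17266588 on the plus strand for Pdia6 and chr15:88819396-88819645 on the plus strand for Creld2. The match has the forward direction in Pdia6 and the reverse direction in Calr and Creld2.
Calr: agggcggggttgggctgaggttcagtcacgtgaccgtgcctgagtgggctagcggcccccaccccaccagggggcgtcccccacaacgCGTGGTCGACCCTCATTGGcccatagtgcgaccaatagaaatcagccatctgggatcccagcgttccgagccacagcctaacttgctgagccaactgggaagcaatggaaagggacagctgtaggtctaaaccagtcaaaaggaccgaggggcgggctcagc
Pdia6: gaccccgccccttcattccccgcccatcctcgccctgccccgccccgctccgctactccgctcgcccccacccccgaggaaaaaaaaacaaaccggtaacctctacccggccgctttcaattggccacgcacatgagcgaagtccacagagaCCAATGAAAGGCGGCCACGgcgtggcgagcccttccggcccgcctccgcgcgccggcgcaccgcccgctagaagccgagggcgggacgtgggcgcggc
Creld2: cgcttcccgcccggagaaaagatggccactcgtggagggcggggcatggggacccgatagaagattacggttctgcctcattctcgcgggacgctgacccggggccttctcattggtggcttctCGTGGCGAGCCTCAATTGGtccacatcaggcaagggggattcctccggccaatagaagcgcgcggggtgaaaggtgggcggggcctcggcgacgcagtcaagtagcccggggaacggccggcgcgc

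Genes of DNA replication had the largest median among the growth-related lists, 0.66 on the log2 scale (0.59 with scaling). Every knockout library lay above every WT library at 18 of 20 members, beside 23.2% of all genes. Called higher were 4 of the 20, Tyms, Mcm5, Mcm2 and Fen1, beside 3.69% of all genes, and Fen1 alone also passed with scaling and with only the 6 compared libraries. With the replicate block 0 of the 20 passed. Fen1, the flap endonuclease gene of Okazaki fragment processing, was at 9.22, 8.24 and 8.39 FPKM in WT and at 16.1, 17.02 and 20.1 FPKM in knockout libraries (log2 difference 0.96, limma adjusted p = 0.0148). Tyms, the gene of thymidylate synthase, was at 43.7, 32.7 and 24.2 against 54.4, 61.6 and 69.7 FPKM (limma adjusted p = 0.046, 0.0742 with scaling). The WT libraries differed among themselves here, with the third the lowest, and without WT library 1 or knockout library 1 the list had 11 or 10 calls, against 1 without WT library 3 or knockout library 2 and 0 without WT library 2 or knockout library 3.

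Mitotic genes showed the same order of the WT libraries but did not pass. Their sum was 1516, 1131 and 825 FPKM in WT and 1334, 1547 and 1620 FPKM in knockout libraries, so that the first WT library lay above the first knockout library. The median log2 difference was 0.43, 0 of 20 members were called (6 at an unadjusted p under 0.05 in limma) and 1 had groups that did not overlap. Top2a, a topoisomerase gene, was at 230, 174 and 120 against 204, 238 and 244 FPKM, and Mki67, a proliferation marker, at 73.2, 55.1 and 35.5 against 59.1, 71.9 and 66.0 FPKM.

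Cholesterol synthesis was called in 6 of 21 genes, all higher, among them Idi1, Hsd17b7, Sqle, Cyp51 and Hmgcs1, and 2 of the 6 also passed with scaling, Idi1 among them. The shares of all genes called higher were 3.69% as deposited and 1.41% with scaling. All 21 log2 differences were above 0 as deposited, with a median of 0.46 (0.39 with scaling), and 9123 of all 14923 genes were above 0 as well. Idi1, the isomerase that makes the second building block of isoprenoids, was at 29.6, 26.1 and 20.2 FPKM in WT and at 44.0, 46.5 and 41.3 FPKM in knockout libraries (log2 difference 0.79, limma adjusted p = 0.0255). Sqle, the gene of squalene epoxidase, was at 23.5, 18.8 and 16.1 against 31.7, 35.5 and 29.0 FPKM and passed as deposited only (limma adjusted p = 0.0337). No gene of the list passed with only the 6 compared libraries, with the replicate block, or without WT library 2, knockout library 2 or knockout library 3. The core of the sterol response element, TCACNCCAC, was present in 1 of 15 promoters, that of Hmgcs1, beside 1.22% of all genes.

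The proteasome degrades ubiquitinated proteins. At 21 of 22 genes every knockout library lay above every WT library, with Psmb1 the exception, beside 23.2% of all genes, and the median log2 difference was 0.32 (0.24 with scaling). Of the 22, 8 passed as deposited (3.69% of all genes were called higher) and Psmd1 alone with scaling, at 26.2, 25.7 and 25.1 FPKM in WT and 33.0, 38.3 and 40.5 FPKM in knockout libraries (log2 difference 0.52, limma adjusted p = 0.0212). With only the 6 compared libraries, with the replicate block, or without WT library 2, knockout library 2 or knockout library 3, 0 subunits passed, and without naive library 3 there were 14 calls.

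Several metabolic groups held calls. Nuclear genes of oxidative phosphorylation were called in 6 of 21 (median 0.30), where 3.69% of all genes were called higher, with Ndufa4, a subunit of the respiratory chain, at 141, 131 and 132 FPKM in WT and 194, 190 and 226 FPKM in knockout libraries. Genes of the TCA cycle and glutamine use were called in 5 of 17 (median 0.30), among them Idh3a, the catalytic subunit of isocitrate dehydrogenase (19.8, 19.3 and 19.5 against 25.3, 28.6 and 28.3 FPKM). With scaling 2 and 1 of these genes remained, Ndufa4 and Uqcrc1 in the first list and Idh3a in the second. Genes of tRNA synthetases were called in 5 of 18 as deposited and in 0 with scaling.

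One-carbon metabolism, which supplies nucleotide synthesis, included Phgdh, the first enzyme of serine synthesis, at 52.0, 38.5 and 45.3 FPKM in WT and at 66.0, 88.7 and 90.4 FPKM in knockout libraries (log2 difference 0.83, limma adjusted p = 0.0281). Mthfd1, a folate cycle enzyme, was at 11.1, 10.0 and 11.7 against 15.9, 21.97 and 21.4 FPKM (limma adjusted p = 0.0212). The groups did not overlap in either gene, and in both the first knockout library was the lowest of its group. Both passed with scaling, and 4 of 16 list members passed as deposited, all higher. Of 20 genes of redox defence, 5 passed as deposited, all higher, and Srxn1, the gene of sulfiredoxin, with scaling too (2.53-fold in the means). For both lists the shares of all genes called higher were 3.69% as deposited and 1.41% with scaling. The core of the antioxidant response element, TGACNNNGC, was present in 6 of the 16 promoters of that list, beside 11.5% of all genes. With only the 6 compared libraries, with the replicate block, or without WT library 2, knockout library 2 or knockout library 3, no gene of these 5 metabolic lists passed, and the nuclear genes of oxidative phosphorylation and tRNA synthetases and the redox list also had 0 calls without WT library 3.

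Other groups had few calls or none. In limma 0 of 17 genes of glycolysis were called (0 at an unadjusted p under 0.05, median -0.11), and 0 of 13 mitochondrially encoded genes (1 at an unadjusted p under 0.05). The same held for 0 of 24 cytosolic ribosomal protein genes (3 unadjusted, median -0.08), 0 of 23 genes of T cell receptor signalling (6 unadjusted, median -0.10) and 0 of 19 activation markers (3 unadjusted). Over all genes, 3836 of 14923 had an unadjusted p under 0.05. Genes of ribosome biogenesis had 1 call in 20, Dkc1, as deposited only. Its median was 0.46, 15 of the 20 had an unadjusted p under 0.05, and at 16 every knockout library lay above every WT library, beside 23.2% of all genes. The hypoxia list had 0 of 15 called (3 unadjusted) and a median of -0.43, with sums of 876, 891 and 472 FPKM in WT and 509, 676 and 406.5 FPKM in knockout libraries. Vegfa, the gene of an angiogenic factor of that list, was at 21.7, 37.1 and 9.25 against 6.98, 15.02 and 2.92 FPKM, overlapping groups that did not pass (limma adjusted p = 0.18).

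**Figure D4:**
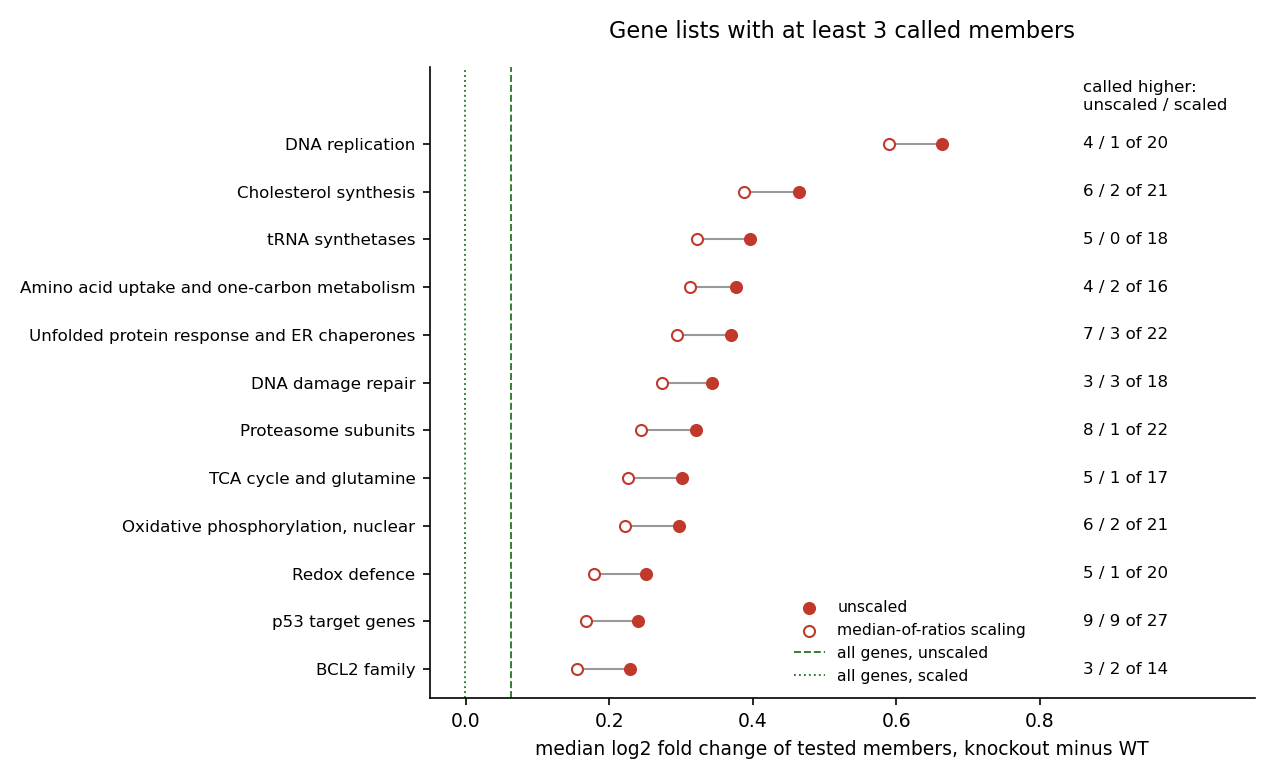
Median log2 difference of the tested members (horizontal axis, knockout minus WT) of the gene lists with at least 3 called members (vertical axis), as deposited and with median-of-ratios scaling, beside all genes tested, with the number of members called higher on the right. Lists defined by position are left out, namely the Tmem254 copies (3 called lower) and the Foxp3 neighbours (1 called higher and 2 lower). DNA replication has the largest median at 0.66, and the p53 targets keep 9 calls in both fits.

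Cytokine genes of T cells had a median log2 difference of 0.64 (0.58 with scaling), with 15 of 17 above 0 and every knockout library above every WT library at 8 of 17, beside 23.2% of all genes. Of the 17, Il22 and Tgfb1 were called, Tgfb1 as deposited only. Chemokine genes had a median of 0.79 with 6 of 6 above 0, 0 called and 3 at an unadjusted p under 0.05 in limma, and the Th17 list a median of 0.43 with 11 of 12 above 0 and 1 called. With scaling, 14 of 17 cytokine, 5 of 6 chemokine and 8 of 12 Th17 genes were above 0. Of all 14923 genes, 9123 were above 0 as deposited and 7429 with scaling. Il22, the gene of a cytokine that acts on epithelia, was at 0.128, 0.0336 and 0.0141 FPKM in WT and at 0.867, 1.24 and 0.792 FPKM in knockout libraries (log2 difference 0.89, limma adjusted p = 0.0116), low levels without overlap. Il17a, the signature cytokine gene of Th17 cells, was at 3.30, 1.26 and 3.27 against 33.5, 12.5 and 2.87 FPKM, with the third knockout library inside the WT range (limma adjusted p = 0.154). Ifng, the interferon-gamma gene, was at 3.94, 2.26 and 1.49 against 4.64, 34.4 and 6.64 FPKM, where the second knockout library stood far above the others (limma adjusted p = 0.132). Gzmb, the granzyme B gene, did not pass either.

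The Th1-related transcription factor Eomes rose, from 1.99, 1.57 and 1.92 FPKM in WT to 5.15, 3.12 and 5.34 FPKM in knockout libraries (log2 difference 0.95, limma adjusted p = 0.0298), while Tbx21, the gene of T-bet, was not called among the 14 Th1 genes. Il1rl1, the gene of the interleukin-33 receptor carried by Th2 and some regulatory T cells, was at 0.324, 0.515 and 0.376 against 1.67, 1.78 and 3.10 FPKM (log2 difference 1.16, limma adjusted p = 0.0188). In both genes all knockout libraries were above all WT libraries. With only the 6 compared libraries the limma adjusted p was 0.0727 for Eomes and 0.0642 for Il1rl1.

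Foxp3, the lineage factor of regulatory T cells, was at 1.02, 0.989 and 0.867 FPKM in WT and at 5.89, 2.21 and 4.31 FPKM in knockout libraries (log2 difference 1.32, SE 0.242, limma adjusted p = 0.0323, 0.0418 with scaling, 0.0756 with only the 6 compared libraries). The reporter used in the sort marks Foxp3 expression, and cells positive for it had been removed in both genotypes. On chromosome X, Ccdc22 overlaps the last 1437 bases of Foxp3 and Ppp1r3f its first 640 bases, both on the opposite strand, and these genes fell: Ppp1r3f was at 6.00, 6.57 and 5.39 against 2.44, 2.25 and 2.17 FPKM (log2 difference -1.08, limma adjusted p = 0.0264). Since the strand setting of the counting is not given in the sources used here, reads of the overlapping parts cannot be told apart. Of 17 tested genes of regulatory T cells, with a median of 0.50, Ikzf2, the gene of Helios, also passed as deposited (1.84-fold, limma adjusted p = 0.0454, 0.0683 with scaling), and Il2ra, Ctla4 and Il10 did not pass.

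The list for naive and quiescent T cells had a median of -0.19. Klf2, a quiescence factor gene, was at 93.4, 103 and 106 FPKM in WT and at 95.8, 53.05 and 56.3 FPKM in knockout libraries, where the first knockout library lay inside the WT range (log2 difference -0.60, limma adjusted p = 0.128). S1pr1, the gene of a receptor for exit from lymphoid tissue, was not called either (log2 difference -0.57, limma adjusted p = 0.173). Cd44, a criterion of the sort, was at 26.0 ± 2.71 and 30.6 ± 2.77 FPKM (limma adjusted p = 0.356). Among smaller decreases, Gimap6, a GTPase gene of lymphocyte survival, was at 489, 534 and 614 against 356, 351 and 404 FPKM. Jak3, the kinase gene of common gamma chain receptors, passed as deposited only (1.31-fold lower, limma adjusted p = 0.0497, 0.0517 with scaling). Its annotated span holds Insl3, described above, on the same strand.

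Called genes were more frequent on chromosome 14, which carries Bmpr1a, than elsewhere. Of 472 genes tested there outside the T cell receptor segments, 38 were called (8.05%), beside 623 of 13840 (4.5%) on the other chromosomes, and with scaling the shares were 5.72% and 2.29%. Within 10 Mb of Bmpr1a, 11 of 75 were called (14.7%), among them 3 copies of 1 gene, described below, that count as 1 observation, and within 5 Mb 6 of 45 (13.3%). These shares were not tested, and the counts near the gene are small.

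The called genes near Bmpr1a moved in both directions. Sh3bp5, described above, lies 3.05 Mb away, and Nisch, the gene of an integrin-binding protein, 3.24 Mb away. Nisch was at 108, 128 and 118 FPKM in WT and 82.2, 85.3 and 81.9 FPKM in knockout libraries (limma adjusted p = 0.0323). Timm23, a mitochondrial import gene 2.23 Mb away, was higher at 52.8, 59.9 and 56.7 against 37.0, 36.1 and 40.2 FPKM, and so was Sfmbt1, a chromatin reader gene (1.68-fold). Glud1, the glutamate dehydrogenase gene, which lies close to Bmpr1a, and Nt5dc2 passed as deposited only (limma adjusted p = 0.033 and 0.0485).

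Further off, at 8.21 to 8.49 Mb, the 3 copies Tmem254a, Tmem254b and Tmem254c fell together. Tmem254b was at 17.8, 17.4 and 17.6 FPKM in WT and at 6.71, 5.42 and 6.53 FPKM in knockout libraries (log2 difference -1.37, limma adjusted p = 0.00173). The libraries within a genotype differed little and the groups were far apart, where the rule for naming genes by size required no overlap. Transcripts of the copies were 100% identical over their aligned bases, so their reads cannot be assigned to 1 copy and the 3 values count as 1 observation. Slmapos2, 8.02 Mb away, fell from 67.8 ± 7.495 to 38.0 ± 4.93 FPKM. Any sequence differences between the genotypes in the segment around the deleted allele cannot be told apart from the deletion in these libraries.

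**Figure D5:**
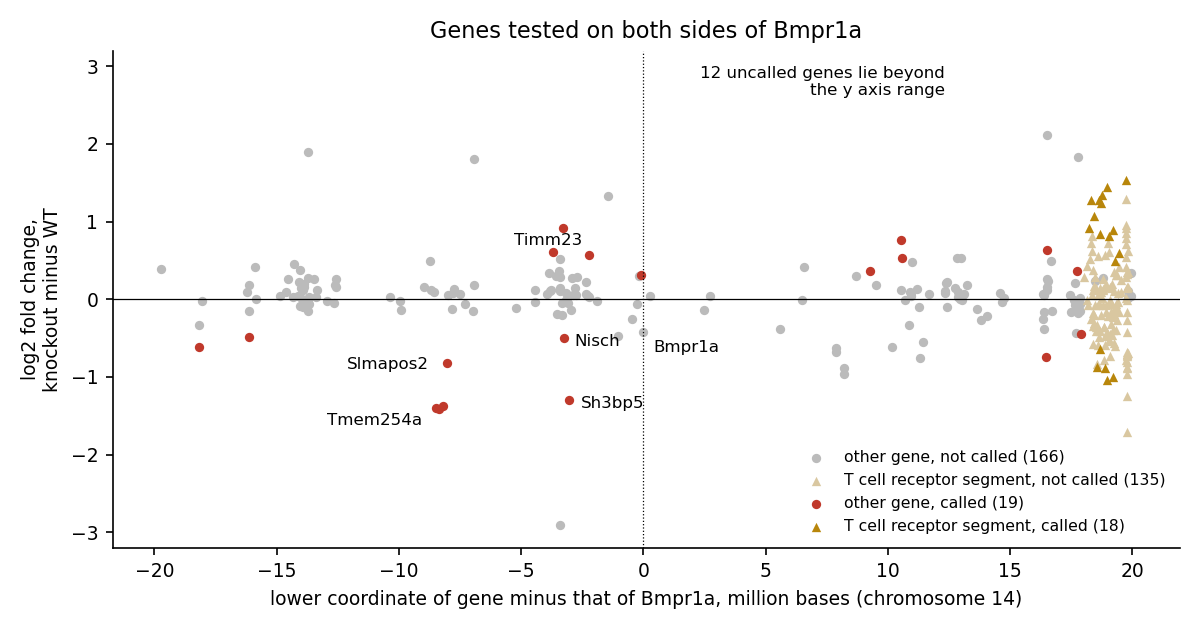
Log2 difference of the genes tested on chromosome 14 within 20 Mb of Bmpr1a (vertical axis, knockout minus WT, on the log2(FPKM + 1) scale) against the distance between lower annotated coordinates (horizontal axis, Mb), with 12 uncalled genes beyond the axis. Circles are genes and triangles T cell receptor segments; 11 of the 75 genes within 10 Mb were called, with the Tmem254 copies at -1.37 to -1.41.

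Segments of the T cell receptor alpha locus, also on chromosome 14, were called in 18 of 151 cases (11.9%), 13 higher and 5 lower, beside 4.63% of all genes. With scaling 14 of them passed (9.27%), beside 2.45% of all genes. As deposited, 1 of 25 beta segments (4%) and 2 of 6 gamma segments were called, and these are small numbers. Trav13-2, which passed in every alternative, was at 14.2, 11.2 and 13.3 FPKM in WT and at 25.9, 25.4 and 23.1 FPKM in knockout libraries (log2 difference 0.89). The short V segments have close copies, which leaves their single values uncertain.

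Some of the largest differences away from Bmpr1a came in clusters, and others did not. Of the 10 genes tested within 0.5 Mb of H60b, 6 were called, beside 4.63% of all genes. Within the same distance, 0 of 17 were called near Cdkn1a and 0 of 28 near Lmna. C920009B18Rik, a transcribed pseudogene, was at 14.3, 21.2 and 21.3 FPKM in WT and at 92.6, 134 and 167 FPKM in knockout libraries (log2 difference 2.71), and Gm2539, another, was at 0.278, 0.164 and 0.153 against 4.45, 2.77 and 3.37 FPKM. Both were higher in all knockout libraries. Hmgb1-ps8, a pseudogene inside H60b on the opposite strand, was lower, at 40.4, 73.9 and 71.1 against 22.2, 15.3 and 16.6 FPKM (log2 difference -1.69, limma adjusted p = 0.0185), while its parent Hmgb1, identical at 96.4% of aligned bases, was not called. Near AA465934 on chromosome 11, 2 of the 25 genes tested within 0.5 Mb were called. One of them, Slfn9, a Schlafen family gene, was at 4.44, 3.87 and 3.85 against 10.4, 9.24 and 11.1 FPKM and passed in every alternative. On chromosome 14, far from Bmpr1a at 63606503 to 63820809, Xkr6 was at 0.193, 0.116 and 0.0984 against 5.04, 4.01 and 4.29 FPKM, and its neighbour Mtmr9 was 2.13-fold higher. Gm2539, C920009B18Rik, Slfn9, Xkr6 and Mtmr9 were chosen after their values were seen.

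Several of the strongest calls were processed pseudogenes, copies of spliced transcripts inserted in the genome. Rps2-ps10 was at 136, 116 and 105 FPKM in WT and at 273, 311 and 283 FPKM in knockout libraries (log2 difference 1.28, limma adjusted p = 0.00265), while the parent Rps2, identical at 99.4% of aligned bases, was not called (log2 difference -0.30). Rbpj-ps3, a copy of the Notch pathway transcription factor gene Rbpj with 99.7% identity, was 3.02-fold higher against 1.51-fold for the parent, which did not pass. As classes, processed pseudogenes were called in 60 of 1454 cases (4.13%) and transcribed processed pseudogenes, to which Rps2-ps10 belongs, in 4 of 62 (6.45%), beside 549 of 11080 protein-coding genes (4.95%).

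A few genes were listed at or near 0 in all libraries of a genotype, and no fold is given for those at 0. Atp6v0e2, which encodes a subunit of the vacuolar proton pump, was listed at 0 in all 3 WT libraries and at 5.18, 5.04 and 4.68 FPKM in the knockout libraries (limma adjusted p = 6.17e-06). Ifi44l, an interferon-induced gene, was likewise listed at 0 in WT and at 3.44, 2.27 and 5.71 FPKM in the knockout. Of 22 listed interferon-stimulated genes, however, Ifi44 alone was called, higher and as deposited only. Ifi44 and Ifi44l lie close together on chromosome 3 and on the same strand, at 151730922 to 151749960 and 151758737 to 151762892. The pseudogene Gm14094 was at 0.210, 0.143 and 0.175 against 15.5, 15.6 and 15.8 FPKM. In the other direction, Rab6b, a Rab GTPase gene, was at 2.73, 4.24 and 3.19 FPKM in WT and at 0.0110, 0.0979 and 0 FPKM in the knockout libraries (limma adjusted p = 0.000306). These 4 genes were chosen after their values were seen, and each passed in every alternative that tested it.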

How the data were processed

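RNA was measured in 9 libraries. The authors deposited 1 table of gene levels in FPKM, made with TopHat2, Cufflinks and Cuffdiff on GRCm38 according to the submitters' processing notes. The sources used here do not give versions, annotation, strand setting or how reads mapping to several places were treated. FPKM carry no read counts, so depth and counting error are unknown, and a gene without signal is described as listed at 0. Of 25759 identifiers, 24876 had a symbol and a position in GENCODE M21.

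Genes were kept where the 6 activated libraries averaged 0.5 FPKM or more. They were tested on log2(FPKM + 1) in R 4.3.3 with limma 3.58.1 (moderated test, intensity trend) in a joint fit of group means over 9 libraries with 6 residual degrees of freedom. Tests were two-sided, with Benjamini-Hochberg adjustment across 14923 genes and calls at an adjusted p under 0.05. Median-of-ratios factors came from 11555 genes that reached 1 FPKM in every library, and the fit was repeated with them. The scale understates the change of low genes, and differences are knockout minus WT. The fit was tested on simulated data.

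The 72 lists (932 symbols, 913 in the table, 821 tested) and the members were chosen with earlier results of these data known. Genes were named by rule: Bmpr1a; the 15 largest increases and 12 largest decreases called with and without scaling, without overlap and with 5 FPKM or more in the higher group, leaving out predicted genes, most clones, small RNA genes and receptor segments; up to 3 called members of each list at 1 FPKM or more; called genes within 5 Mb of Bmpr1a; and genes overlapping a named gene on the other strand. Other list members that the text gives were chosen after their values were seen. Transcripts were aligned with Biopython 1.88. Promoter sequences came from RefSeq. Results for some genes are not reported here.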

Additional observations from a re-analysis of the deposited data

How the results depend on the processing

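The count of called genes depended on the settings. The 691 calls became 366 with median-of-ratios scaling, 372 with quantile normalization, 416 with no filter on low values, 100 with only the 6 compared libraries, 75 with the 6 libraries and scaling, 64 with the replicate block and 3858 with array quality weights, where naive library 1 had a weight of 4.925, WT library 2 of 2.58, knockout library 3 of 1.89 and every other library under 0.8. Leaving out 1 library gave between 71 and 1156 calls: 71 without knockout library 3, 72 without WT library 2, 110 without knockout library 2, 349 and 309 without WT library 1 or 3, and 157 and 464 without naive library 1 or 2. The 366 calls with scaling became 75 with only the 6 libraries. Alternatives chosen after seeing the data gave 56 with the replicate block and scaling, and 72 to 882 when 1 library was left out with scaling, with 125 and 200 without naive library 1 or 2, 149 without WT library 1 and 118 without knockout library 2. The cause of these shifts was not tested, beyond the fewer libraries that some settings hold. Other pseudocounts, filters and no intensity trend gave 514 to 750 calls. Deviations of same-numbered activated WT and knockout libraries from their group means correlated at 0.0135, 0.0342 and 0.0028. Those of differently numbered libraries correlated at -0.036 to 0.022. The labels do not say whether the replicate numbers pair the libraries, and these correlations cannot decide it.

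The Bmpr1a difference stayed negative in every alternative, from -0.60 to -0.25 when 1 library was left out, and was -0.41 with the replicate block (limma adjusted p = 0.24). It passed with array quality weights alone (-0.62, limma adjusted p = 0.037, where the alternatives spanned 0.037 to 0.558). Of 90 called genes named by rule, 11 passed in every alternative. The Mpp1 log2 fold change, not called (0.02), reversed to -0.055 with scaling, -0.073 with quantile normalization and -0.055 with 6 scaled libraries, and lay between -0.061 and 0.110 when 1 library was left out (-0.050 without WT library 2). The Capn7 log2 fold change, also uncalled (-0.05), lay between -0.118 and 0.018, the latter without knockout library 2.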
